A study of Homo sapiens with 30 samples.

Results

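The genes described here code for collagen chains, laminin chains, integrin subunits, fibronectin (FN1), lysyl oxidase (LOX) and the surface glycoprotein THY1. Members were all gene names of the collagen, laminin and integrin families, plus FN1, LOX and THY1, with a level above 0.1 FPKM (a read density scaled by transcript length and library size) in at least 3 of the 30 libraries. Of the 22537 gene names in the files, 69 fitted the name rule and 38 of these passed the level, namely 19 collagens, 7 laminins, 9 integrins and the 3 single genes. The 69 names do not cover the families in full: COL5A1, COL12A1 and LAMB2, for example, are not among them. Last inside was LAMA4, above 0.1 FPKM in 3 libraries and listed at 0 in 27, and first outside was ITGB7, above it in 2. Tests covered the 23 members that reached 1 FPKM in at least 3 libraries, which were 11 collagens, 4 laminins, 5 integrins, FN1, LOX and THY1. The other 15 are described by their levels. LAMB3, ITGAV, ITGB1 and ITGB4 were not analysed here, and ITGB6 was listed at 0 in 29 libraries.

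RNA was sequenced as 50 bp single reads from BEAS-2B, an established human bronchial epithelial line. Wells were exposed for 30 min and lysed 2 h or 24 h after exposure, with 3 wells in each of 10 groups. The 4 exposures were burning charcoal without shisha (charcoal only), charcoal with a tobacco-free herbal shisha (herbal shisha), charcoal with tobacco shisha (charcoal-heated tobacco), and tobacco shisha on an electric heater (electrically heated tobacco), and control wells were taken at each time. Each exposure was used at the highest level without LDH release at 24 h, a measure of membrane damage, so the dose of each exposure was set by that limit. The treatment of the control wells is not stated in the labels. They also do not say whether the 3 wells of a group were separate cultures; p-values therefore reflect well-to-well spread alone, which can be technical.

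Collagens are triple-helical proteins secreted into the matrix: types I, V and XI form fibrils, type IV forms the network of basement membranes, and type VI forms beaded filaments. Laminins are basement membrane trimers of an alpha, a beta and a gamma chain, fibronectin is a matrix glycoprotein that cells assemble into fibrils, and LOX crosslinks collagen and elastin. Integrins are dimers of an alpha and a beta subunit that tie this matrix to the cytoskeleton, and an airway epithelium rests on the laminin and type IV collagen of its basement membrane. As background to the cells used, KRT8 (466 to 728 FPKM), KRT18 and VIM (596 to 963 FPKM) were high in every library, while the epithelial genes CDH1 (at most 0.156 FPKM), TP63, KRT5, KRT14 and GRHL2 were at or near 0, as were the fibroblast genes DCN, FAP and PDGFRA and the immune gene PTPRC. The epithelial genes CLDN1 (27.7 to 107 FPKM) and KRT19 (19.8 to 65.7 FPKM) were expressed in every library.

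Several collagen genes lie in pairs that share a start region, and 3 start regions are shown for members that fell at 24 h. COL4A1 (chr13:110148963-110307233, minus strand) and COL4A2 (chr13:110305812-110513209, plus strand, hg38 positions of GENCODE) run in opposite directions from RefSeq starts 127 bases apart. COL4A6 and COL4A5 run in opposite directions on chromosome X, from GENCODE starts 347 bases apart. COL6A1 and COL6A2 are neighbours on chromosome 21, and LAMC1 lies at chr1:183023460-183145592. The next lines give the 250 bases before the RefSeq start (build GRCh38.p14), 5′ to 3′ on the gene's strand, for a network collagen, a fibrillar collagen and a laminin chain. Capitals mark matches to CCAAT or GGGCGG on either strand; TGANTCA, the letters of AP-1 type sites, was also searched and had 0 matches in these 3. The positions are chrX:108439588-108439837 (plus strand) for COL4A5, chr1:103108523-103108772 (minus strand) for COL11A1 and chr1:183023170-183023419 (plus strand) for LAMC1.
COL4A5: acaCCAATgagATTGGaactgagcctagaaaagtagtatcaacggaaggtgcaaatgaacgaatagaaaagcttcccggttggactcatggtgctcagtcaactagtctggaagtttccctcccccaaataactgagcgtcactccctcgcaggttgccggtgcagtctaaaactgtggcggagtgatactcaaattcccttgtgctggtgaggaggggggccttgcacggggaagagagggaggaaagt
COL11A1: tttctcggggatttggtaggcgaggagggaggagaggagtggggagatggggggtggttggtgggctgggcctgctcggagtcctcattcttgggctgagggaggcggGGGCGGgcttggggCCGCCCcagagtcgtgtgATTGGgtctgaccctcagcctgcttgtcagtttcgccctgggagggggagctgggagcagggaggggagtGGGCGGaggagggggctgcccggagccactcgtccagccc
LAMC1: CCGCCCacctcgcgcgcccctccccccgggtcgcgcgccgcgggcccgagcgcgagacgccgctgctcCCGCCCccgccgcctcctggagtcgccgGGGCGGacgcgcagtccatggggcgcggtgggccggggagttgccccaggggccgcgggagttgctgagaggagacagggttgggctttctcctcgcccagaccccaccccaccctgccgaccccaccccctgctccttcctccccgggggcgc
COL4A5 had 2 matches to CCAAT and 0 to GGGCGG, COL11A1 had 1 and 3, and LAMC1 had 0 and 3. RefSeq promoter windows were found for 27 of the 38 members. Among the 15 tested members with a window, 12 held GGGCGG, 6 held CCAAT and 0 held TGANTCA in any of their windows. Counted by window, 63.6%, 27.3% and 3.03% of the 33 windows of the 27 members held these motifs. The shares of all 35116 windows were 42.6%, 32% and 6.57%.

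FN1 had the highest level of the set, 201 to 513 FPKM over the 30 libraries. THY1, COL1A1, ITGA3, the alpha subunit of a laminin receptor, and LAMC1 followed with means over all libraries of 129, 122, 117 and 74.5 FPKM. COL1A1 exceeded COL1A2, its partner in type I collagen, by 6.93 ± 0.455 times (mean ± SD of the ratio, n = 3 wells) in the 24 h controls, and COL4A2 exceeded COL4A1 by 2.31 ± 0.166 times. Some partners of expressed chains were near 0: COL6A3 was at most 0.0335 FPKM beside COL6A1 at 21.1 to 42.4 FPKM, and COL4A3 was listed at 0 in all libraries beside COL4A4 and COL4A5. COL3A1 was near 0 as well, at most 0.0994 FPKM. Among laminins, LAMC1 and LAMB1 (mean 13.9 FPKM) stood above the alpha chains LAMA1, LAMA5 and LAMA3 (1.91, 0.438 and 0.414 FPKM). COL11A1 (1 FPKM or more in 15 libraries) and COL4A4 (in 3) entered the tests only through the groups in which they were high, so counts over the tested members lean towards change and are given as descriptions.

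Control wells themselves differed between the times, and LOX showed this most. LOX was at 8.9, 9.25 and 8.68 FPKM in the 2 h control wells and at 15.2, 15.2 and 15.3 FPKM in the 24 h control wells, a log2 difference of 0.71 (SE 0.05) (limma adjusted p = 3.9e-09). All 24 h wells lay above all 2 h wells. Of the 23 tested members 9 were higher and 1 was lower at 24 h, where 16.9% of all 8530 tested names were called (7.44% higher and 9.44% lower). ITGA4, whose integrin binds VCAM1 and fibronectin, rose by 0.45 (SE 0.06), ITGB5 by 0.39 (SE 0.07), ITGA6, a laminin receptor subunit, by 0.32 (SE 0.07), LAMA1 by 0.30 (SE 0.09) and COL4A1 by 0.29 (SE 0.10). The other rises, of LAMB1, ITGA3 and LAMC1, were smaller. FN1 fell from 501 ± 13.9 to 373 ± 10.7 FPKM (log2 difference -0.42). COL1A1, COL4A2, THY1 and ITGA5 were not called (-0.28, -0.19, 0.08 and 0.12). Leaving out control well 2 or 3 of the 2 h group lowered the count from 10 to 6. COL4A1 (adjusted p = 0.162 without well 3 of the 2 h controls), LAMB1, LAMA1, LAMC1 and ITGA3 lost their call without at least 1 well. The 4 exposures at a time share its control wells, so each comparison below is read on its own.

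**Figure D1:**
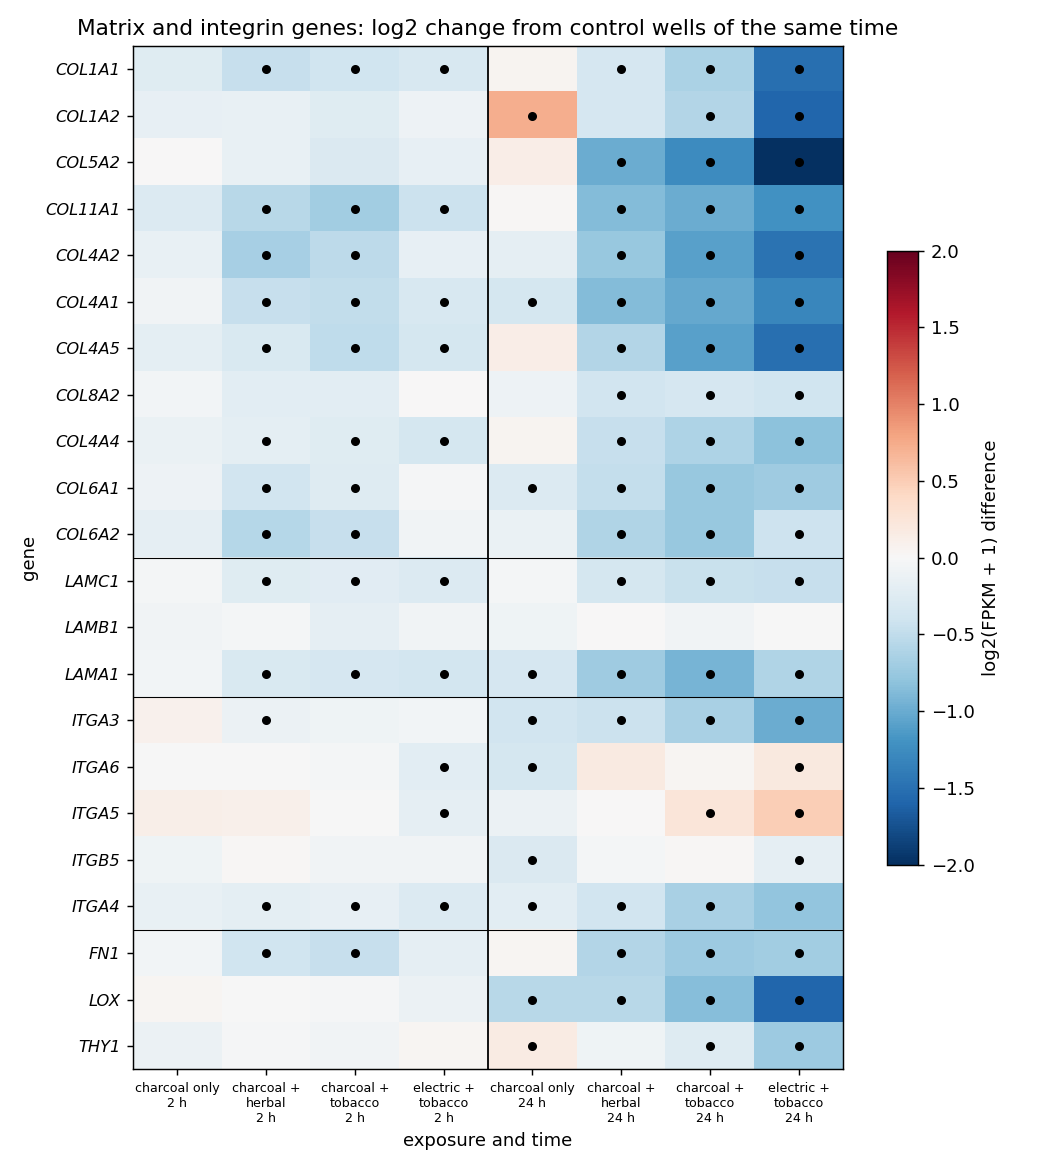
Heat map of the log2(FPKM + 1) difference from the control wells of the same time for 22 of the 23 tested members (rows) after each exposure (columns, 3 wells per group, 2 h left and 24 h right of the line). Blue is lower and red is higher than control; dots mark members called by limma at an adjusted p below 0.05. No dot stands in the charcoal-only column at 2 h, and LAMB1 is the row without a dot in the column for electrically heated tobacco at 24 h.

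At 2 h, 5 of the 11 tested collagens, LAMC1 and LAMA1 were lower after each of the 3 shisha exposures. FN1 was lower after herbal shisha and charcoal-heated tobacco, and no tested member was called higher. Charcoal only gave 0 calls at 2 h, where 24.4% of all tested names were called (8.16% higher and 16.2% lower); 4 of the 23 members had an unadjusted p below 0.05, of which 1 was higher and 3 were lower, and the smallest limma adjusted p was 0.0536, for THY1. This 0 depended on the fit. A fit on the control and charcoal-only wells alone called 6 members, a fit after median-of-ratios scaling of the libraries called 2, and leaving out charcoal well 1 called 1. A fit without the filter on low values called 0 of the 23, and 2 of the 15 members below the test level (COL15A1 higher and LAMA3 lower, adjusted p = 0.00894 and 0.0162). Herbal shisha gave 13 lower (38.2% of all names called, 10.6% higher and 27.7% lower), charcoal-heated tobacco gave 12 (35.2% called, 8.5% higher and 26.7% lower) and electrically heated tobacco gave 10 (34% called, 9.27% higher and 24.8% lower). Of the 11 tested collagens 8, 8 and 5 were among these, in that order, with COL4A4 and COL11A1 in each count. The median log2 change over the 23 was -0.20, -0.24 and -0.17 in that order, against -0.07, -0.08 and -0.04 over all tested names. In these bulk samples, fewer cells making a transcript and less of it per cell cannot be told apart.

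COL4A2, a network chain, was at 95.3, 88.2 and 86.6 FPKM in the 2 h control wells, 55.9, 63.9 and 50.2 FPKM after herbal shisha and 61.5, 64.9 and 59.7 FPKM after charcoal-heated tobacco. Neither group overlapped the controls, and the log2 changes were -0.66 (SE 0.11) and -0.53 (SE 0.11) (adjusted p = 6.88e-05 and 0.00083). Charcoal only (84.2, 82.2 and 77.2 FPKM) and electrically heated tobacco (86.3, 84.3 and 71.6 FPKM) lay nearer the controls, though under the lowest of them, and were not called. COL4A1 fell after herbal shisha (-0.46), charcoal-heated tobacco (-0.49) and electrically heated tobacco (-0.32), and was not called after charcoal only (-0.07). COL1A1, the main type I chain, was at 167 ± 4.54 FPKM in control, 121 ± 10.2 after herbal shisha (log2 change -0.47), 126 ± 5.89 after charcoal-heated tobacco (-0.40), 134 ± 7.53 after electrically heated tobacco (-0.32), and 141 ± 6.08 after charcoal only, which was not called (-0.24) although its wells also lay below all control wells. COL1A2 and COL5A2 were not called after any exposure at 2 h.

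Among the other falls at 2 h, COL11A1 changed by -0.56, -0.70 and -0.43 after herbal shisha, charcoal-heated tobacco and electrically heated tobacco. COL11A1 reached 1 FPKM in every control well and in few shisha wells of 2 h. That favours lower calls, so its values are a description. COL6A2, a chain of type VI collagen, changed by -0.58 and -0.47 after the herbal and charcoal-heated tobacco shisha and was not called after electrically heated tobacco (-0.07). COL4A5 changed by -0.51 after charcoal-heated tobacco and -0.36 after electrically heated tobacco. FN1 was at 513, 485 and 504 FPKM in control, 405, 370.3 and 365 FPKM after herbal shisha and 356, 333 and 403 FPKM after charcoal-heated tobacco, with changes of -0.40 (SE 0.10) and -0.46 (SE 0.10). After electrically heated tobacco FN1 was at 481, 492 and 366 FPKM, with well 3 alone far below control, and was not called (-0.18, adjusted p = 0.176). LAMC1 and LAMA1 fell after each shisha exposure, with changes of -0.24, -0.22 and -0.27 for LAMC1 and -0.30, -0.34 and -0.37 for LAMA1. ITGA4 fell after each shisha exposure (-0.20, -0.16 and -0.28). COL4A4 was called lower after each as well (-0.19, -0.24 and -0.36). It passed the filter through 2 h control wells and a charcoal-only well of 24 h. That favours lower calls against the 2 h controls, so these values of COL4A4 are a description. ITGA6 and ITGA5, the fibronectin receptor subunit, fell after electrically heated tobacco (-0.22 and -0.19) and were not called after the other exposures at 2 h. LOX, THY1 and LAMB1 were not called after any exposure at 2 h, with log2 changes of LOX between -0.12 and 0.03.

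Well 3 of the electrically heated tobacco group held the lowest value of its group for 15 of the 23 members, and the count of 10 dropped to 6 without it, COL1A1, COL4A1, ITGA6 and COL11A1 being lost (highest adjusted p 0.175, for COL11A1). The COL1A1 call was lost without any of 5 of the 6 wells compared (adjusted p up to 0.106, without electric well 2), after median-of-ratios scaling and without the filter, and that of COL4A5 without either of 2 wells. After herbal shisha the calls of ITGA3, COL4A4 and COL4A5 were lost without any of several wells (for COL4A5 an adjusted p of 0.111 without control well 2), and that of LAMA1 without control well 1. After charcoal-heated tobacco those of ITGA4, COL6A1 and COL4A4 were lost without at least 1 well.

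At 24 h most collagens, LOX, ITGA3 and ITGA4 were lower after the shisha exposures, with the lowest means of most of them after electrically heated tobacco, while ITGA5 was higher after that exposure. Charcoal only gave 2 members higher and 8 lower (9.87% of all names called, 6.05% higher and 3.82% lower). Herbal shisha gave 0 higher and 16 lower (26.8% called, 16.5% higher and 10.4% lower). Charcoal-heated tobacco gave 1 higher and 18 lower (44.5% called, 25.9% higher and 18.6% lower) and electrically heated tobacco 3 higher and 19 lower (63.8% called, 34.3% higher and 29.5% lower). Of the 11 tested collagens 1 was higher and 2 were lower after charcoal only. After herbal shisha 10 were lower, and all 11 after each tobacco exposure, COL4A4 and COL11A1 among them. The median log2 change over the 23 was -0.11, -0.42, -0.65 and -0.73 in the order charcoal only, herbal, charcoal-heated tobacco and electrically heated tobacco, against 0.02 to 0.04 over all tested names. The electrically heated tobacco group had the lowest of the 5 group means for 14 of the 23 members, 9 of them collagens.

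The tested fibrillar collagens fell at 24 h after both tobacco exposures. COL5A2, a type V chain that helps set the width of type I fibrils, was at 16.95, 17.8 and 11.7 FPKM in the control wells, with well 3 lowest. It was at 7.76, 7.9 and 6.07 FPKM after herbal shisha, 3.98, 6.79 and 7.1 FPKM after charcoal-heated tobacco and 2.68, 3.83 and 2.88 FPKM after electrically heated tobacco, all below every control well. The log2 changes were -0.99 (SE 0.15), -1.26 (SE 0.15) and -1.99 (SE 0.15), the last with an adjusted p of 1.06e-10, and charcoal only left 17.6, 16.3 and 16.5 FPKM, not called (0.13). COL1A1 was at 143, 145 and 126 FPKM in control, 66.01, 93.96 and 114 FPKM after charcoal-heated tobacco and 44.4, 52.8 and 46.1 FPKM after electrically heated tobacco. The charcoal-heated wells were spread and the electrically heated wells were tight, at changes of -0.63 (SE 0.12) and -1.51 (SE 0.12). After herbal shisha COL1A1 changed by -0.34, a call lost without any of 4 wells (adjusted p up to 0.125, without herbal well 3), and after charcoal only it was not called (0.05).

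COL1A2 was the collagen that moved in opposite directions. It was at 22.2, 20.6 and 17.3 FPKM in control and 31.5, 33.8 and 35.9 FPKM after charcoal only, every exposed well above every control well (log2 change 0.73 (SE 0.15), adjusted p = 0.00207). It was at 9.18, 15.2 and 15.4 FPKM after charcoal-heated tobacco and 5.34, 6.93 and 5.81 FPKM after electrically heated tobacco, changes of -0.59 (SE 0.15) and -1.58 (SE 0.15), and was not called after herbal shisha (-0.33, adjusted p = 0.0939). The ratio of COL1A1 to COL1A2 was 4.26 ± 0.391 after charcoal only and 7.96 ± 0.354 after electrically heated tobacco (SD, n = 3 wells). COL11A1, a minor fibrillar chain, was at 1.55 FPKM in control and 0.0877 FPKM after electrically heated tobacco (-1.21). Every control well and no shisha well of 24 h reached 1 FPKM for COL11A1, so these values are a description. The fibroblast marker list holds both type I chains and 2 other tested genes, PDGFRB and VIM. PDGFRB, a growth factor receptor, changed in the directions of COL1A2, by 0.56 after charcoal only, -0.40 after charcoal-heated tobacco and -1.17 after electrically heated tobacco. VIM, the intermediate filament protein vimentin, fell after charcoal only (-0.43, adjusted p = 0.000258, wells below all controls), where COL1A2 rose, and was not called after charcoal-heated tobacco (0.01) or electrically heated tobacco (-0.05). The summed level of that list, of which 4 of the 10 genes in the files were tested and DCN was listed at 0 in every library, was mostly VIM (mean 825 FPKM in the 24 h controls). It was 958 to 1042 FPKM in those controls, 797 to 831 after charcoal only, 876 to 1090 after herbal shisha, 926 to 972 after charcoal-heated tobacco and 822 to 885 after electrically heated tobacco. The sum of 12 epithelial genes, mostly KRT8 and KRT18 (560.4 and 351 FPKM in the same controls), was 895 to 1070 FPKM in control, 1171 to 1249 after charcoal only, 769 to 840 after herbal shisha, 821 to 929 after charcoal-heated tobacco and 797 to 858 after electrically heated tobacco. The keratin KRT19 was lower after electrically heated tobacco, by a log2 change of -1.24 (SE 0.12), and was not called after the other exposures at 24 h. CLDN1, another epithelial gene, rose after charcoal-heated tobacco (0.36) and fell after electrically heated tobacco (-0.26). It was not called after charcoal only or herbal shisha (0.16 and -0.26). KRT8 rose after charcoal only (0.31) and fell after herbal shisha and electrically heated tobacco (-0.21 and -0.13). KRT18 fell after each shisha exposure (-0.54, -0.41 and -0.36). CD14, a lipopolysaccharide co-receptor on the immune list, rose after charcoal only (0.72) and fell after herbal shisha, charcoal-heated tobacco and electrically heated tobacco (-0.80, -1.26 and -0.68), while PTPRC was at or near 0. CD68, the other tested gene of the immune list, was not called after any exposure at 24 h. Its changes had the opposite signs to those of CD14 (-0.42, 0.32, 0.12 and 0.29 in the same order). The part of these lists in the results was not tested.

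**Figure D2:**
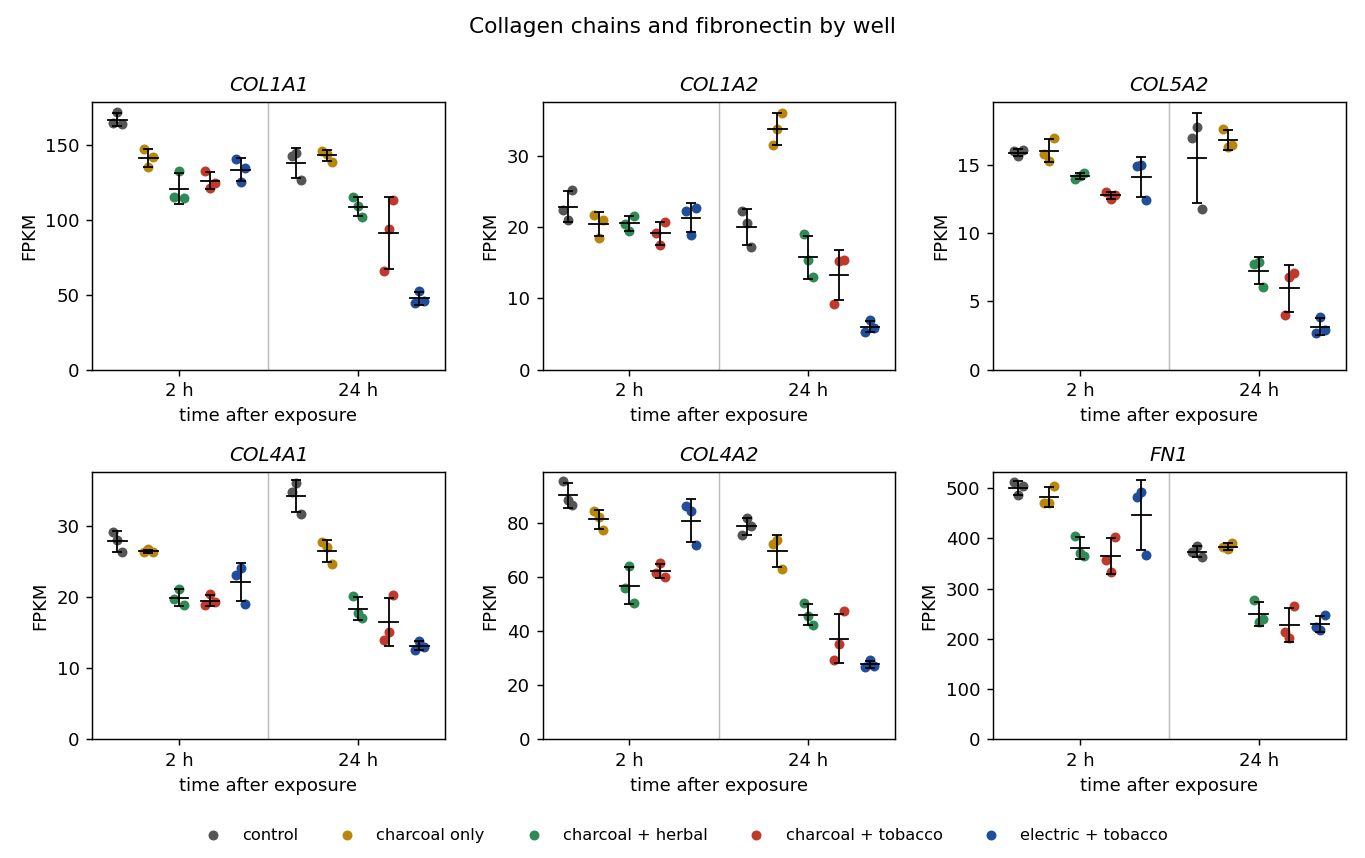
FPKM of 5 collagen chains and FN1 in each well (points), grouped by time after exposure and coloured by exposure, with the mean and SD of 3 wells as bars; each panel has its own linear axis from 0. At 24 h the wells exposed to electrically heated tobacco lie below every control well in all 6 panels, and at that time COL1A2 is the panel in which all charcoal-only wells lie above all controls.

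Network collagens fell at 24 h after each shisha exposure. COL4A1 was at 34.8, 36.0 and 31.6 FPKM in control, 27.7, 27.02 and 24.7 FPKM after charcoal only, 20.1, 17.8 and 17.1 FPKM after herbal shisha, 13.98, 15.1 and 20.3 FPKM after charcoal-heated tobacco and 12.6, 13.9 and 13.04 FPKM after electrically heated tobacco. Every exposed well lay below every control well, and the log2 changes were -0.36 (SE 0.10), -0.86 (SE 0.10), -1.02 (SE 0.10) and -1.31 (SE 0.10). COL4A2, which starts beside it, changed by -0.76, -1.09 and -1.47 after the 3 shisha exposures and was not called after charcoal only (-0.18). COL4A5, whose start region holds 2 CCAAT matches, was at 4.03, 4.59 and 4.32 FPKM in control and 0.946, 1.02 and 0.64 FPKM after electrically heated tobacco (-1.51 (SE 0.11)), with -0.58 and -1.09 after herbal shisha and charcoal-heated tobacco. COL8A2 fell after each shisha exposure as well (-0.40 after electrically heated tobacco). COL4A4 entered the tests through 2 control wells of 2 h and 1 charcoal-only well of 24 h, and its values are given as a description: it was at 0.999, 0.905 and 0.779 FPKM in the 24 h controls, 0.445, 0.421 and 0.257 FPKM after herbal shisha, 0.141, 0.293 and 0.284 FPKM after charcoal-heated tobacco and 0.0727, 0.108 and 0.0346 FPKM after electrically heated tobacco. The shisha wells lay below all of these controls. Type VI chains had another order: COL6A2 was lower after charcoal-heated tobacco (6.57 FPKM, -0.76) than after electrically heated tobacco (8.61 FPKM, -0.41), and COL6A1 changed by -0.76 and -0.72.

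Within the charcoal-heated tobacco group at 24 h, well 1 held the lowest value for 15 of the 23 members and well 3 for 1. Leaving out any single well left 19 members called in that comparison. Within the herbal group at 24 h, well 1 held the lowest value for 0 of the 23 members, well 2 for 11 and well 3 for 12. LAMA1, for example, was at 2.12, 1.23 and 1.24 FPKM in these wells, and COL4A5 at 3.53, 2.26 and 2.05 FPKM. With a well left out, 15 to 17 members were called after herbal shisha at 24 h.

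Of the laminin chains, LAMC1 and LAMA1 fell at 24 h after each shisha exposure. LAMC1, the gamma chain of most laminins, was at 91.9, 92.6 and 87.6 FPKM in control and 77.4, 70.8 and 66.0 FPKM, 63.1, 64.99 and 70.4 FPKM and 62.1, 68.8 and 65.5 FPKM after herbal shisha, charcoal-heated tobacco and electrically heated tobacco, changes of -0.34 (SE 0.05), -0.45 (SE 0.05) and -0.47 (SE 0.05). LAMA1, an alpha chain, fell after each exposure, most after charcoal-heated tobacco (-0.93 (SE 0.09); -0.34, -0.71 and -0.60 after charcoal only, herbal shisha and electrically heated tobacco). An RNA from the opposite strand overlaps 11.1% of the exon bases of LAMA1 and 10.7% of those of THY1, and the strand setting of the counting is not given in the sources used here. LAMB1 was not called after any exposure at either time, and the ratio of LAMC1 to LAMB1 was 5.82 ± 0.803 in control and 4.22 ± 0.319 after electrically heated tobacco at 24 h.

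Integrin subunits rose or fell by subunit. ITGA3, at 142, 144 and 155 FPKM in the 24 h controls, was at 113, 116 and 108 FPKM after charcoal only, 114, 106 and 109 FPKM after herbal shisha, 86.8, 93.6 and 99.6 FPKM after charcoal-heated tobacco and 72.6, 79.5 and 68.8 FPKM after electrically heated tobacco. No exposed well reached the lowest control well, and the changes were -0.39 (SE 0.05), -0.42 (SE 0.05), -0.65 (SE 0.05) and -0.99 (SE 0.05). ITGA4 followed the same order (-0.22, -0.38, -0.65 and -0.78). ITGA5, which pairs with ITGB1 to bind fibronectin, went the other way: 46.2, 46.9 and 47.1 FPKM in control, 58.95, 52.8 and 54.4 FPKM after charcoal-heated tobacco and 70.02, 63.6 and 65.9 FPKM after electrically heated tobacco, with changes of 0.24 (SE 0.05) and 0.50 (SE 0.05). ITGA5 was not called after charcoal only (-0.11) or herbal shisha (0.01). ITGA6 fell after charcoal only (-0.35 (SE 0.07)) and rose after electrically heated tobacco (0.19 (SE 0.07)), the rise being lost at an adjusted p of 0.163 without control well 2. The ratio of ITGA3 to ITGA6, both partners for laminin, was 10.6 ± 0.98 in control and 4.57 ± 0.184 after electrically heated tobacco. ITGB5, a vitronectin receptor subunit, fell after charcoal only (-0.29) and after electrically heated tobacco (-0.18), both lost without control well 3 (adjusted p = 0.0854 and 0.266).

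LOX had the smallest p of the set at 24 h. It was at 10.98, 9.48 and 9.75 FPKM after charcoal only, 10.2, 9.94 and 9.89 FPKM after herbal shisha, 7.98, 7.67 and 8.22 FPKM after charcoal-heated tobacco and 4.13, 4.67 and 4.41 FPKM after electrically heated tobacco, against control wells at 15.2, 15.2 and 15.3 FPKM. The log2 changes were -0.55 (SE 0.05), -0.56 (SE 0.05), -0.86 (SE 0.05) and -1.59 (SE 0.05), with adjusted p from 7.98e-07 to 8.28e-16. The wells of charcoal only and herbal shisha overlapped each other and lay below all controls, and the 2 tobacco groups lay below both. THY1, a GPI-anchored glycoprotein that binds integrins, rose after charcoal only (157, 162 and 158 FPKM against 139.9, 139.5 and 145 FPKM, 0.16 (SE 0.04)), was not called after herbal shisha (-0.08), and fell after charcoal-heated tobacco (-0.25 (SE 0.04)) and electrically heated tobacco (82.1, 89.9 and 82.8 FPKM, -0.73 (SE 0.04)). The rise of THY1 was lost at an adjusted p of 0.0697 without charcoal well 2. FN1 was at 372, 385 and 363 FPKM in control and 383, 378 and 389.9 FPKM after charcoal only, not called (0.04), and fell to 250.01, 227 and 229 FPKM after herbal shisha, charcoal-heated tobacco and electrically heated tobacco (-0.58, -0.72 and -0.70).

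Charcoal well 3 mattered for the charcoal-only comparison at 24 h: without it 5 members were called in place of 10, and COL4A1, LAMA1, COL6A1, ITGA4 and ITGB5 lost their call (highest adjusted p 0.114, for LAMA1). LOX, ITGA3, ITGA6 and COL1A2 kept theirs without any single well.

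**Figure D3:**
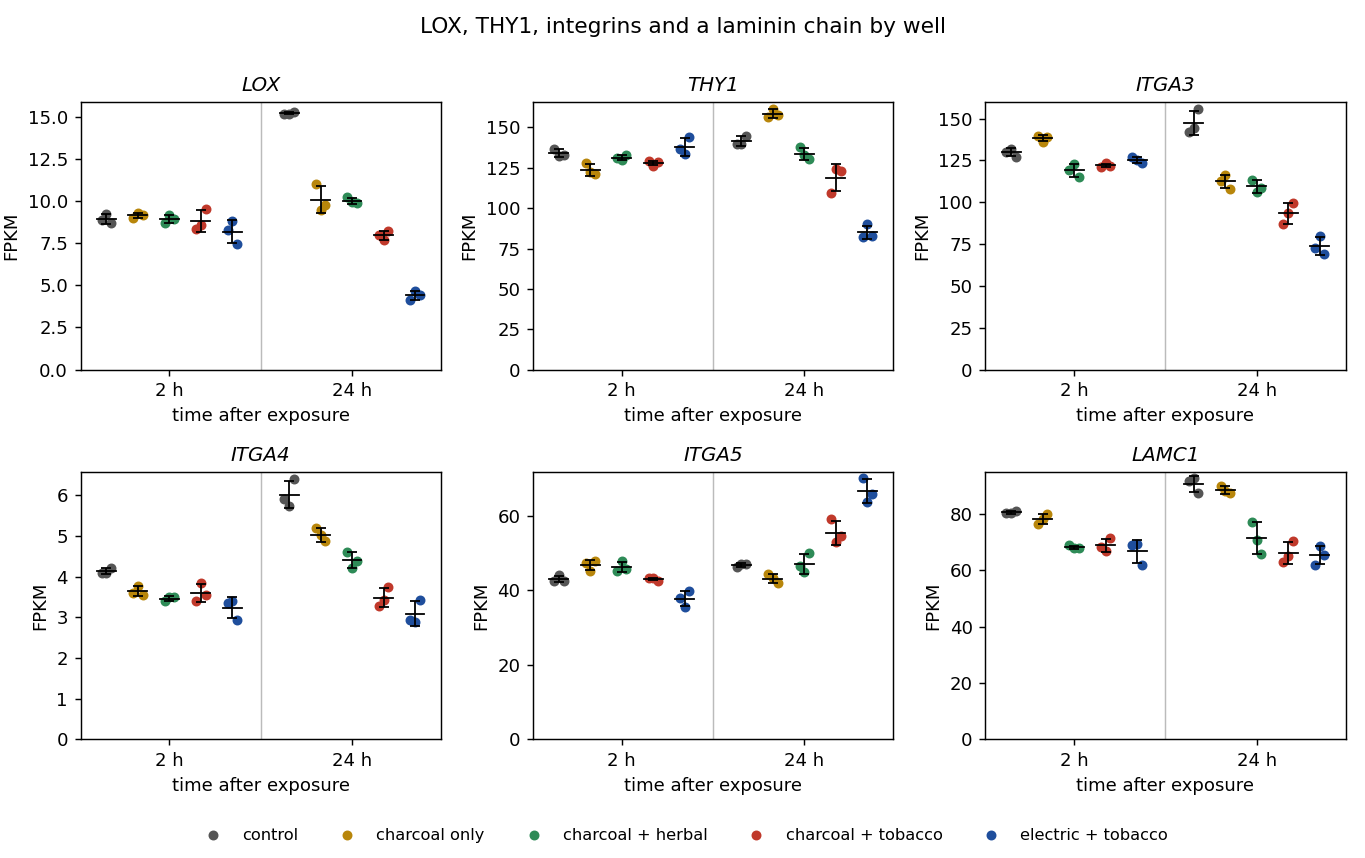
FPKM of LOX, THY1, ITGA3, ITGA4, ITGA5 and LAMC1 in each well, grouped by time and coloured by exposure, with mean and SD of 3 wells; each panel has its own linear axis from 0. LOX control wells rise from 8.68 to 9.25 FPKM at 2 h to about 15 FPKM at 24 h, and ITGA5 is highest after electrically heated tobacco at 24 h.

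The effects at 24 h were set against those at 2 h in the same fit. For charcoal only, 6 of the 23 members differed between the times (2 higher and 4 lower at 24 h; 23.2% of all names, 16.2% higher and 7% lower), COL1A2 by 0.89 (SE 0.21) and THY1 by 0.28 (SE 0.06) upwards, LOX, ITGA3, ITGA6 and ITGA5 downwards (-0.59, -0.48, -0.34 and -0.23). Herbal shisha gave 6, all lower (32.3% of all names, 24% higher and 8.3% lower), led by COL5A2 (-0.83), LOX (-0.56), LAMA1 (-0.41), COL4A1 (-0.40), ITGA3 (-0.30) and COL4A4 (-0.27); without herbal well 3 of 24 h the count was 3, and the calls of COL4A1, LAMA1 and COL4A4 were each lost without at least 1 well. Charcoal-heated tobacco gave 1 higher, ITGA5 (0.24), and 12 lower (41% of all names, 30.2% higher and 10.8% lower), from COL5A2 (-0.96), LOX (-0.84), LAMA1 (-0.59), COL4A5 (-0.58), ITGA3 (-0.56) and COL4A2 (-0.56) to THY1 (-0.18, lost without charcoal-heated tobacco well 1 of 24 h). Electrically heated tobacco gave 3 higher and 17 lower (57.7% of all names, 34.8% higher and 22.8% lower). ITGA5 (0.68) and ITGA6 (0.41) were among the higher, and the largest falls were COL5A2 (-1.82), COL1A2 (-1.48), LOX (-1.47), COL4A2 (-1.32), COL1A1 (-1.19) and COL4A5 (-1.15). ITGA5 and ITGA6 fell after electrically heated tobacco at 2 h and rose after it at 24 h.

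The dose of each exposure was set by its own LDH limit. In the comparisons between exposures, dose therefore cannot be told apart from shisha or heat source. Herbal shisha was first set against charcoal only. At 2 h, 7 members were lower and 0 higher with the shisha (24.4% of all names called, 10.1% higher and 14.3% lower): COL4A2 by -0.52, COL6A2 by -0.40, COL4A1 by -0.39, FN1 by -0.34, COL6A1 by -0.29 and ITGA3 by -0.22 were the largest; FN1 and COL6A1 were lost without herbal well 3. At 24 h, 16 were lower and 4 higher (31.5% called, 15.3% lower and 16.2% higher). All 11 tested collagens were lower with herbal shisha, COL5A2 by -1.12 (SE 0.15), COL1A2 by -1.06 (SE 0.15), COL11A1 by -0.89, COL4A5 by -0.71, COL4A2 by -0.58, COL4A1 by -0.51 and COL1A1 by -0.39, as were FN1 (-0.62) and THY1 (-0.24). Charcoal-only wells of 24 h helped COL11A1 and COL4A4 pass the filter, and no herbal well of 24 h reached 1 FPKM for either. That favours lower calls here, so both are given as a description. ITGA6 (0.53 (SE 0.07)), ITGB5 (0.25) and ITGA5 (0.12) were higher. Several of these calls rested on single wells: COL6A1 (-0.21, wells overlapping) was lost without any of 5 wells (adjusted p up to 0.225), ITGA5 without any of 5 (up to 0.258), ITGA4 without any of 4 (up to 0.121), COL8A2 without any of 3 (up to 0.0956), and COL1A1 and ITGB5 without herbal well 3. LOX was not called (-0.00, 95% interval -0.12 to 0.11).

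Tobacco was then set against herbal shisha, both on charcoal. At 2 h no member was called (0.61% of all names; 1 member had an unadjusted p below 0.05), with intervals of -0.10 to 0.37 for COL4A2, -0.27 to 0.14 for FN1 and -0.17 to 0.30 for COL1A1. At 24 h, 6 were lower and 1 was higher with tobacco (5.12% called, 2.71% lower and 2.42% higher): COL4A5 by -0.51 (SE 0.11), LOX by -0.30 (SE 0.05), COL6A1 by -0.28, ITGA4 by -0.27, ITGA3 by -0.23 and THY1 by -0.17, with ITGA5 higher by 0.23 (SE 0.05). This count of 7 rested on single wells: it was 1 without charcoal-heated tobacco well 1, 3 without herbal well 1, and 0 in a fit on the 2 groups alone. COL1A1, COL4A1, COL4A2 and FN1 were not called (-0.29, -0.16, -0.33 and -0.14).

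The last pair was tobacco shisha on charcoal against tobacco shisha on the electric heater, where heat source and dose cannot be told apart. At 2 h, 4 members were lower and 1 was higher with charcoal than with the electric heater (23.3% of all names called, 10.6% higher and 12.7% lower): COL6A2 (-0.39), COL4A2 (-0.37), FN1 (-0.29) and COL6A1 (-0.24) were lower and ITGA5 (0.18) was higher. That count was 1 without electric well 1, 3 without charcoal-heated well 1 and 2 without charcoal-heated well 3. At 24 h 11 members were higher on charcoal, 7 of them collagens, and 4 were lower (47.8% called, 24.9% higher and 22.9% lower). COL1A2 was 2.2 times and COL1A1 1.91 times as high on charcoal as on the electric heater (0.99 (SE 0.15) and 0.89 (SE 0.12)). LOX (0.73 (SE 0.05)), COL5A2 (0.73 (SE 0.15)), THY1 (0.48 (SE 0.04)) and COL4A5 (0.42 (SE 0.11)) came next, and COL4A2 and COL4A1 were smaller (0.39 and 0.29), with calls lost without charcoal-heated well 3 (adjusted p = 0.0945 and 0.211). COL6A2 (-0.35), LAMA1 (-0.33) and ITGA5 (-0.26 (SE 0.05)) were lower on charcoal. FN1 was not called (-0.02, 95% interval -0.23 to 0.18), nor was LAMC1 (interval -0.09 to 0.12). The call of COL6A2 was lost without charcoal-heated well 2.

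**Figure D4:**
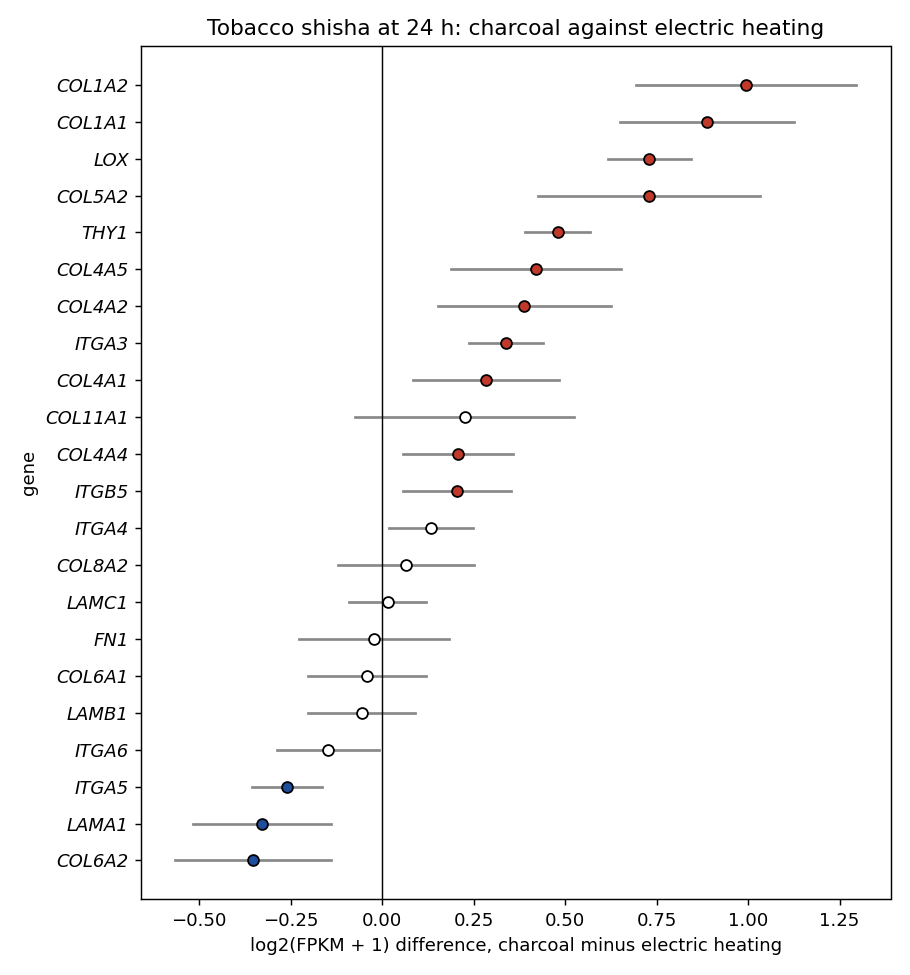
Log2(FPKM + 1) difference between charcoal-heated and electrically heated tobacco shisha at 24 h for 22 of the 23 tested members, with the 95% interval of the fit as lines (3 wells per group). Filled points passed an adjusted p below 0.05, red for higher on charcoal and blue for lower; COL1A2 and COL1A1 lie farthest right and COL6A2 farthest left.

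The 15 members below the test level were mostly under 1 FPKM, and a fit without the filter on low values gives the only p-values for them. LAMA3, an alpha chain of epithelial laminins, was at 0.553, 0.596 and 0.546 FPKM in the 24 h controls, 0.617, 0.651 and 0.648 FPKM after charcoal only, 0.134, 0.141 and 0.152 FPKM after charcoal-heated tobacco and 0.158, 0.174 and 0.0901 FPKM after electrically heated tobacco. The tobacco wells lay below all controls (log2 changes -0.45 and -0.46, adjusted p = 0.000104 and 3.41e-05 without the filter). LAMA5, the alpha chain of many mature basement membranes, had 0.637, 0.706 and 0.815 FPKM in control and 0.0472, 0.112 and 0.0989 FPKM after charcoal-heated tobacco, and herbal wells apart from each other at 0.664, 0.0903 and 0.0931 FPKM. COL4A6, which starts beside COL4A5, was at 0.465 FPKM in control, 0.105 after charcoal-heated tobacco and 0.153 after electrically heated tobacco. COL5A3 was at 0.373 FPKM in control, 0.0874 after herbal shisha and at most 0.105 FPKM in the wells of both tobacco groups.

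ITGA2, the alpha subunit of a collagen and laminin receptor, and COL27A1, a fibrillar collagen, were higher at 24 h after electrically heated tobacco. ITGA2 was at 0.187, 0.21 and 0.294 FPKM in the 24 h controls and 1.01, 0.575 and 1.01 FPKM after electrically heated tobacco (log2 change 0.59, adjusted p = 1.26e-07 without the filter); the row kept for ITGA2, of 6, carries the accession of a non-coding transcript. COL27A1 was at 0.31, 0.398 and 0.388 FPKM and 0.827, 0.806 and 0.845 FPKM (0.42). Neither group overlapped its control. COL15A1 was at 0.0988, 0.101 and 0.11 FPKM in the 2 h controls and above all of them in every exposed well of that time, up to 0.225 FPKM as a group mean after herbal shisha. The log2(FPKM + 1) scale understates changes at such levels. Means over all libraries of the other 8 ran from 0.0266 FPKM for LAMA4 to 0.535 FPKM for COL13A1, with COL9A3, COL16A1, ITGA2B, ITGA11, ITGA9 and COL2A1 between.

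**Figure D5:**
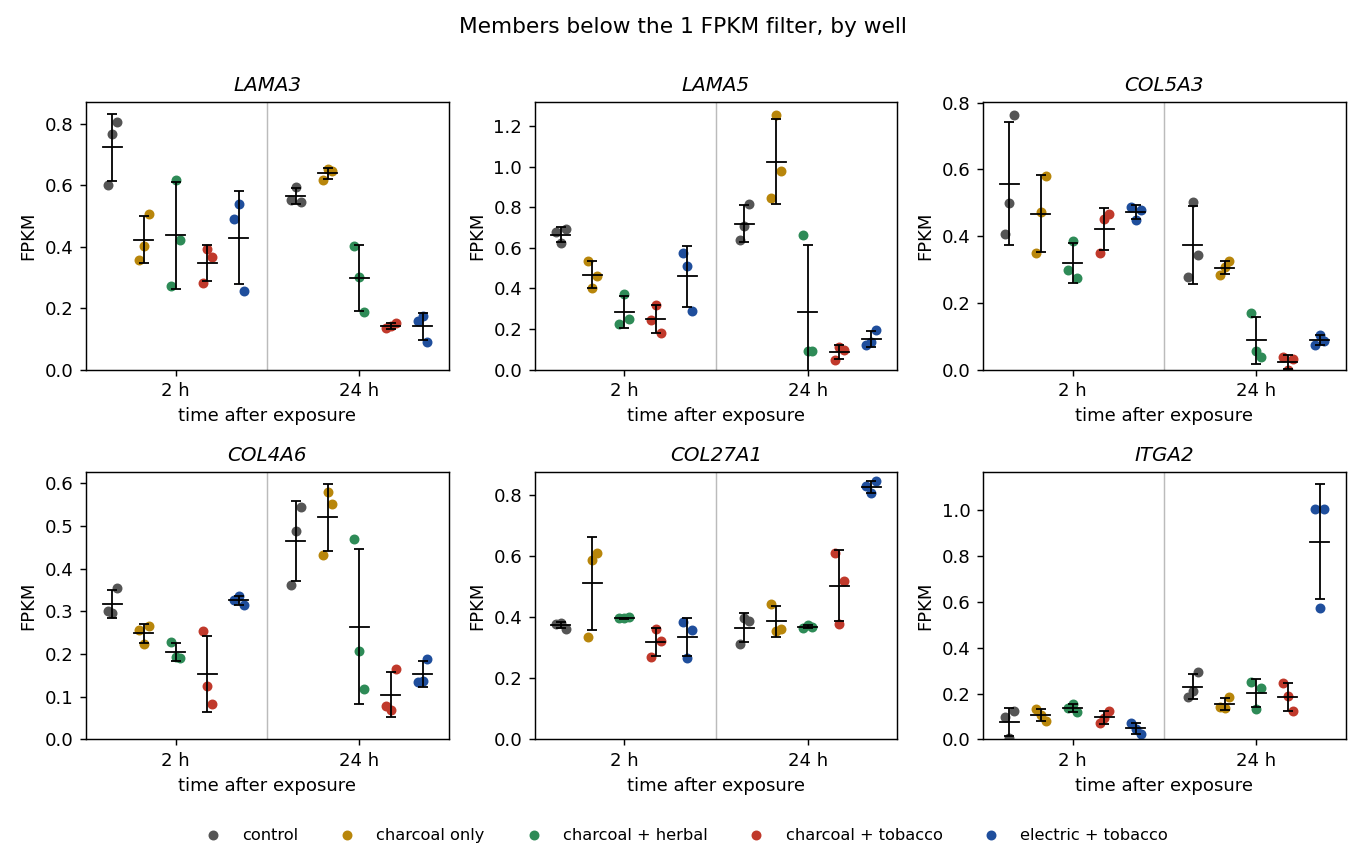
FPKM in each well for 6 members under the test level, grouped by time and coloured by exposure, with mean and SD of 3 wells, on linear axes of different height. At 24 h LAMA3, LAMA5 and COL4A6 have their lowest means in the tobacco groups, and COL27A1 and ITGA2 are highest after electrically heated tobacco.

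Partner genes of the same pathways were counted beside the members. Of 19 tested genes for collagen modification and crosslinking, 4 were higher and 9 lower 24 h after electrically heated tobacco, with a median of -0.10; the share called, 68.4%, was near the 63.8% over all names. LOXL2, a crosslinking relative of LOX, fell from 136 to 41.8 FPKM (-1.66 (SE 0.17)), and P3H2, a prolyl hydroxylase that acts on collagens, changed by -0.98. SERPINH1, the collagen chaperone HSP47, went the other way, from 141 to 467 FPKM (1.64 (SE 0.15), adjusted p = 3.24e-09), while every tested collagen was lower in the same wells. The same list had 4 higher and 9 lower after charcoal-heated tobacco (44.5% of all names called), 3 and 8 after herbal shisha (26.8%) and 1 and 6 after charcoal only (9.87%) at 24 h, and at most 2 higher and 3 lower after any exposure at 2 h (24.4% to 38.2%).

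Of 18 tested matrix glycoprotein and basement membrane genes, 2 were higher and 13 lower 24 h after electrically heated tobacco (median -0.61), where 34.3% of all names were higher and 29.5% lower. HSPG2 (perlecan, -2.04) and FBN2 (fibrillin, -1.60) were the largest falls, and CD44, a hyaluronan receptor, rose by 1.45. The counts were 1 and 11 after charcoal-heated tobacco (25.9% of all names higher and 18.6% lower), 1 and 9 after herbal shisha (16.5% and 10.4%) and 2 and 2 after charcoal only (6.05% and 3.82%), where TGFBI changed by -0.68. At 2 h CYR61 and THBS1, matricellular proteins, rose after charcoal only (1.74 and 1.56) in wells where 0 of 23 members were called. Among 16 adhesion complex genes, 2 were higher and 8 lower after electrically heated tobacco at 24 h, with PARVB (-1.05), TLN1 (talin, which activates integrins, -0.88) and ACTN4 (-0.88) lower; the share called, 62.5%, was near the 63.8% over all names. NEDD9, a scaffold at integrin complexes, rose at 2 h after each exposure (1.64, 1.26, 1.23 and 0.83). The adhesion list at 2 h had 3 higher and 0 lower after charcoal only, and 3 and 4 after herbal shisha. It had 1 and 4 after charcoal-heated tobacco, and 2 and 7 after electrically heated tobacco. Of all names, 8.16%, 10.6%, 8.5% and 9.27% were higher in that order, and 16.2%, 27.7%, 26.7% and 24.8% lower. Of 11 genes of TGF-beta signalling, a pathway that raises collagen transcription in many cells, 6 were higher and 1 lower 2 h after charcoal only (SMAD7 1.35, TGFB2 0.90), where 8.16% of all names were higher and 16.2% lower. At the same time 3 were higher and 3 lower after herbal shisha (10.6% and 27.7% of all names). The counts were 3 and 2 after charcoal-heated tobacco (8.5% and 26.7%) and 2 and 5 after electrically heated tobacco (9.27% and 24.8%). At 24 h after electrically heated tobacco 4 were higher and 3 lower, a share of 63.6% against 63.8% over all names, with TGFB2 at -0.92 and PMEPA1 at 0.80.

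FPKM sums were 199985 to 220259 per library and 7597 to 7943 names reached 1 FPKM. Wells of a group correlated at 0.983 to 0.992. The files give no read counts and at most 39.2% of low values fell within 0.05 of a multiple of the best step (10% by chance), so depth is unknown and no counting interval can be given.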

How the data were processed

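RNA of 30 wells was sequenced; groups and replicate numbers come from the sample titles. The submitters' processing notes name HISAT2 2.1.0, StringTie 1.3.4d and hg38. The annotation release, read filters and strand setting are not stated there or in the labels. The authors deposited 1 FPKM value for each transcript accession (the unit is named by their matrix of all samples); whether it covers the gene or that transcript is not stated; where a name had several rows, that with the highest mean was kept, which touched 0 of the tested members. Their matrix repeats the 30 files and was not used. Values were taken as log2(FPKM + 1), the 8530 names reaching 1 FPKM in 3 libraries were fitted with limma 3.58.1 (trend, R 4.3.3), 1 mean per group over all 30 libraries, no block and no further scaling (20 residual degrees of freedom, prior 2.76), and p-values were adjusted by Benjamini-Hochberg over all 8530. A name was called at an adjusted p below 0.05; "rose" and "fell" are used only of called genes, and changes are log2(FPKM + 1) differences with the SE of the fit, which understate changes of low genes. Levels are FPKM by well, or mean ± SD over 3 wells. The fit was checked on simulated data.

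Members and lists were chosen with earlier results of these data known. Values are given for FN1, LOX, THY1, COL1A1, COL4A1, COL4A2, LAMA3, ITGA2 and ITGA5, for the 6 largest rises and falls among called members of a comparison, and for up to 3 called genes of each list; values of further genes were chosen after they were seen. A tested member that is counted with the others is not reported here by name. The same rule listed LAMB3, ITGAV, ITGB1, ITGB4 and ITGB6. No comparison had all 3 correlations between the deviations of same-numbered wells above 0.1, so numbers were not taken as pairs. For the 2 tobacco groups at 24 h these correlations were 0.23, 0.18 and 0.07. Alternatives were a pseudocount of 0.1, no filter, median-of-ratios scaling, summed rows, a replicate block, fits on the compared groups alone and leaving out each well. Promoter sequences come from RefSeq and gene positions from GENCODE release 29.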

Additional observations from a re-analysis of the deposited data

Results flagged for a closer look

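The exposure effect differed between 2 h and 24 h, by a test of that difference in the same limma fit, for 6 members after charcoal only, 6 after herbal shisha, 13 after charcoal-heated tobacco and 20 after electrically heated tobacco. LOX differed after each exposure, with log2 differences of -0.59, -0.56, -0.84 and -1.47 in that order; its control wells were at 8.94 FPKM at 2 h and 15.2 FPKM at 24 h, while the exposed wells of 24 h were at 10.1, 10.02, 7.96 and 4.4 FPKM. ITGA3 differed after each exposure as well (-0.48, -0.30, -0.56 and -0.94), its control mean moving from 129.7 to 147 FPKM. After electrically heated tobacco ITGA5 (0.68) and ITGA6 (0.41) were called in opposite directions at the 2 times, lower at 2 h and higher at 24 h.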

How the results depend on the processing

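Of 112 called changes of members (against control, and between control times), 81 stayed called in every setting, 31 were lost in at least 1 and 0 reversed. The count for charcoal only at 2 h (0 of 23) stayed 0 of 23 without the filter, where 2 of the 15 members below it were called (COL15A1 and LAMA3), and became 2 with median-of-ratios scaling (ITGA3 and ITGA5, both higher), 1 with the replicate block and 6 in a fit on these groups alone (2 higher, 4 lower), and lay between 0 and 1 when a well was left out. Electrically heated tobacco at 2 h (10) lay between 6 and 10 and charcoal only at 24 h (10) between 5 and 9 with a well left out. Charcoal-heated against electrically heated tobacco at 2 h (5) was 3 without the filter, 1 on the groups alone and 1 to 4 with a well left out, and tobacco against herbal shisha at 24 h (7) was 0 on the groups alone and 1 to 10 with a well left out. Between control times (10) the range was 6 to 8. The difference between times was called for 11 members after charcoal only on the groups alone (6), and for herbal shisha (6) it was 10 with median-of-ratios scaling and 3 to 7 with a well left out. The causes were not tested.

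No paired reading was adopted; with the replicate block, 2 of the 112 calls were lost (COL4A4 and ITGA3, both after herbal shisha at 2 h), and every well correlated best with its own number only for charcoal only against control at 2 h and for the 2 tobacco groups at 24 h. Median-of-ratios scaling lost 9 of the 112. It moved the median of all names by over 0.1 only in the differences between times, from 0.116 to 0.00899 for herbal shisha and from 0.132 to 0.00983 for charcoal-heated tobacco. It changed the split of all called names: higher and lower calls at 2 h went from 696 and 1385 to 957 and 690 for charcoal only, from 901 and 2359 to 1597 and 1645 for herbal shisha, from 725 and 2276 to 1425 and 1540 for charcoal-heated tobacco and from 791 and 2112 to 1396 and 1702 for electrically heated tobacco. At 24 h they went from 516 and 326 to 417 and 438, from 1406 and 883 to 966 and 1098, and from 2206 and 1590 to 1774 and 1899 for charcoal only, herbal shisha and charcoal-heated tobacco. For charcoal-heated against electrically heated tobacco at 2 h they went from 907 and 1084 to 1103 and 854. For the differences between times they went from 1382 and 597 to 723 and 892 (charcoal only), from 2047 and 708 to 1027 and 1169 (herbal shisha), from 2578 and 919 to 1400 and 1501 (charcoal-heated tobacco, where the call of ITGA5 was lost) and from 2970 and 1948 to 2497 and 2347 (electrically heated tobacco). Members then numbered 1 higher and 9 lower after herbal shisha at 2 h, and 2 higher and 2 lower between the 2 tobacco groups at 2 h. Single genes between exposures and times, and genes of the pathway lists, were tried under the same settings by a choice made after seeing the data; of 91 list gene changes 14 were lost in at least 1 setting and 0 reversed.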
